A study of Mus musculus with 8 samples.

Results

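The genes described here are the enzymes and carriers of hepatic urea synthesis, with 3 periportal enzymes that release nitrogen from single amino acids. The list holds 10 genes (Cps1, Otc, Ass1, Asl, Arg1, Nags, Slc25a15, Gls2, Hal and Sds), and a probe set was taken as a member where the platform annotation gave it 1 gene symbol equal to one of these names. In this way 8 of the 10 genes were reached by 11 of 45037 probe sets, among 18193 genes that had a probe set of their own. Gls2, the liver form of glutaminase, and Sds, serine dehydratase, had no probe set under this rule and were not analysed here. Liver RNA was measured on Affymetrix mouse arrays, 1 array per mouse, in 4 mice fed a diet with persimmon peel (PP) extract (PD) and 4 mice fed the control diet (CD). All were male KK-Ay mice, a strain that becomes obese and models type 2 diabetes, aged 14 weeks. The PD mice ate AIN-93G diet containing 1 g of PP extract per kg for 8 weeks and the CD mice ate AIN-93G alone, and both were fasted for 3 h before the liver was taken. The 8 livers were taken out of 6 PD and 7 CD mice in the study and were picked for total ketone bodies in plasma near the mean of their diet, so they do not show the full spread of either group.

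The urea cycle turns ammonia, which is toxic, into urea for excretion. Nags makes N-acetylglutamate, the activator that Cps1 needs. Cps1 and Otc work inside the mitochondrion and Ass1, Asl and Arg1 in the cytosol, while Slc25a15 carries ornithine in and citrulline out across the inner mitochondrial membrane. In the liver lobule these genes are most active in hepatocytes around the portal vein, and glutamine synthesis by Glul takes up the remaining ammonia around the central vein. Glucagon, glucocorticoids and dietary protein are known to raise the enzymes of the cycle. RNA of a whole liver piece does not separate the zones, and in such bulk RNA fewer cells of a type and less RNA per cell cannot be told apart.

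Promoter sequences of 5 of the 8 measured genes were held in the RefSeq table used here (build GRCm38.p6), each covering 250 bases before and 50 bases after a gene start. A set of 4 is shown because it holds genes whose values had an r of at least 0.8 with those of Asl between the mice (Hal and Slc25a15) and genes that had a lower r with it (Otc and Nags). Hal lies at chr10:93488518-93488817 (plus strand), Nags at chr11:102145263-102145562 (plus strand), Slc25a15 at chr8:22398228-22398527 (minus strand, the first of its 2 listed starts) and Otc at chrX:10252055-10252354 (plus strand). Capitals mark the matches of the motifs named in the next paragraph.
Hal: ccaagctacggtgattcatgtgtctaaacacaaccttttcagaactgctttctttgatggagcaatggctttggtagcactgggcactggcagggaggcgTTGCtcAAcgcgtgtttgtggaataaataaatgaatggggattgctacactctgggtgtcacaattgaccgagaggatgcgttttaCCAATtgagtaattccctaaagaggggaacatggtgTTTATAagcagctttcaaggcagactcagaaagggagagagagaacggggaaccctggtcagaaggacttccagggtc
Nags: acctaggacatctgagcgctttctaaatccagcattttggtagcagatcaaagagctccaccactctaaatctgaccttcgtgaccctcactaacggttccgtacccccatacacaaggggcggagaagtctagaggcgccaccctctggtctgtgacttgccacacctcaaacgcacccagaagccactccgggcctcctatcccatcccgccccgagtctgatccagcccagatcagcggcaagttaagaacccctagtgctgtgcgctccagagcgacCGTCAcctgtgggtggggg
Slc25a15: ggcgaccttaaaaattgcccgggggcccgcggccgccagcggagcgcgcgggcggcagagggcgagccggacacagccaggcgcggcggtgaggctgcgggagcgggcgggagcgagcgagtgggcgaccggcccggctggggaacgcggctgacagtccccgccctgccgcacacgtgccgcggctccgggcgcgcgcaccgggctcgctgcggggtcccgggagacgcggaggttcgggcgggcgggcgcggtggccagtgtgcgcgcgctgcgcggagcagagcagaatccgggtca
Otc: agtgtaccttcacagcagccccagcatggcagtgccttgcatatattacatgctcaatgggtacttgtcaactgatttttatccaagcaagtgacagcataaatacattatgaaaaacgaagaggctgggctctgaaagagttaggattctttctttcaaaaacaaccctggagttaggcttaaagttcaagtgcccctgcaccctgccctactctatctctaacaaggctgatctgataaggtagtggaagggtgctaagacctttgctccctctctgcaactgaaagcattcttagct

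On both strands of these windows, 7 motifs of factors or core elements known from hepatic genes were searched by their letters. The Nags window held 1 match of the cAMP response element half-site TGACG, read on the minus strand 31 bases after the gene start, and 20.8% of 32851 promoters in the table held this half-site. In the Hal window the TATA box motif TATAAA was found on the minus strand (position −28), the CCAAT box on the plus strand (position −64) and the C/EBP-type motif TTGCNNAA on the plus strand (position −150). These motifs occurred in 13.6%, 37.4% and 10.8% of all promoters in the table. Neither the Slc25a15 window nor the Otc window contained any of the 7 motifs. The other motifs were the glucocorticoid receptor half-site AGAACA (in 19% of promoters), the HNF4-type motif CAAAGNNCA (6.36%) and the forkhead motif TGTTTAC (3.65%), which none of the 5 genes carried in these windows. The matches did not overlap each other, and they describe letters in a window, not binding.

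None of the 11 probe sets passed a test of the difference between the diets. The rank product, which ranks the PD/CD ratio of each probe set within every pair of a PD and a CD array, called 0 of them at a false discovery rate (FDR) under 0.1 in either direction. Over the whole array it called 0.209% of probe sets as higher in PD (94 probe sets) and 0.26% as lower (117 probe sets), so 0 of 11 does not stand apart from the background. limma called 0 of them at an adjusted p under 0.1 and 0% of all probe sets (0 of 45037, lowest adjusted p = 0.998), while 0 of the 11 and 1642 of all probe sets had an unadjusted p under 0.05. PD and CD mice overlapped for each of the 11, and the 2 groups did not overlap for 2.08% of all probe sets. For the 8 genes, each by its probe set of highest mean, 4 differences were positive and 4 negative. Their median was 7.3e-05 on the log2 scale, against −0.006 over all genes, of which 46.5% were higher in PD. The median size of the difference was 0.042 for the 8 genes and 0.043 for all genes. An exact permutation test of 4 PD against 4 CD mice cannot give a two-sided p below 0.0286.

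All values are log2 model-based expression indices, a probe-affinity-corrected signal, so 1 unit is a doubling of signal within a probe set. They rank mice for 1 probe set and do not order the genes by abundance. For the mitochondrial entry of the cycle, Nags had values of 9.20, 8.86, 9.04 and 8.97 in PD1 to PD4, against 9.27, 9.01, 9.11 and 9.18 in CD1 to CD4. The lowest mouse was PD2 and the highest CD1, and the groups overlapped. The difference of Nags was −0.12 (95% interval of limma −0.30 to 0.05, exact permutation test, p = 0.229).

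Cps1, the enzyme that fixes ammonia into carbamoyl phosphate, had values of 13.73, 13.77, 13.59 and 13.52 in PD1 to PD4, against 13.72, 13.69, 13.54 and 13.65 in CD1 to CD4. PD averaged 13.65 ± 0.12 and CD 13.65 ± 0.08 (SD, n = 4 each). Its difference of −0.002 had an interval of −0.15 to 0.14, which corresponds to a PD/CD ratio of 0.998 with bounds of 0.904 and 1.10. This was the smallest spread among the 8 genes, with a pooled within-group SD of 0.0997.

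Otc joins carbamoyl phosphate to ornithine and gives citrulline. Its main probe set, that of highest mean, had values of 12.97, 12.79, 13.08 and 12.96 in PD1 to PD4, against 13.06, 12.88, 12.88 and 12.81 in CD1 to CD4, with PD3 highest and PD2 lowest. The difference was 0.04 (interval −0.11 to 0.20, exact permutation test, p = 0.629). The second and the third probe set of Otc, with means of 12.81 and 8.38 over the 8 mice, differed by −0.002 and 0.08 (exact permutation test, p = 0.971 and p = 0.171). Between mice, the main probe set followed the second with r = 0.709 and the third with r = 0.474, and the second and the third had r = 0.002 (8 mice). What is said of Otc between mice thus rests on the probe set taken.

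Slc25a15, the mitochondrial ornithine carrier, had values of 12.42, 12.40, 12.29 and 12.27 in PD1 to PD4, against 12.28, 12.38, 12.19 and 12.52 in CD1 to CD4. Both the highest mouse (CD4) and the lowest (CD3) were in the CD group, and the PD values lay between them. The difference was 0.002 (interval −0.16 to 0.16, exact permutation test, p = 0.971). Its other probe set read 8.82, 8.85, 8.72 and 8.48 in PD mice, against 8.57, 8.63, 8.66 and 8.95 in CD mice. That is a difference of 0.01, and both probe sets varied together between mice (r = 0.771, 8 mice).

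In the cytosol, Ass1 condenses citrulline with aspartate. Its only probe set with 1 symbol had values of 8.14, 8.03, 8.13 and 7.91 in PD1 to PD4, against 8.71, 8.43, 7.97 and 8.23 in CD1 to CD4. CD1, CD2 and CD4 were above every PD mouse, while CD3 was below 3 of the 4 PD mice. The PD mean was 8.05 ± 0.11 and the CD mean 8.34 ± 0.31 (SD, n = 4 each), a difference of −0.28 (interval −0.571 to 0.002) or a PD/CD ratio of 0.821. The difference did not pass a test (FDR = 0.223 by the rank product, limma adjusted p = 0.998 with an unadjusted p of 0.0511, exact permutation test, p = 0.143). Without CD1 it was −0.16 and without CD3 it was −0.41. One further probe set carried Ass1 together with a second symbol, Gm5424, and was left out of the members for that reason. It read 12.25, 12.08, 12.17 and 12.06 in PD mice, against 12.23, 12.40, 11.94 and 12.47 in CD mice, a difference of −0.12 (interval −0.34 to 0.11, exact permutation test, p = 0.371). CD3 was the lowest mouse there, while PD4 was the lowest on the probe set with 1 symbol, and between mice the Ass1 probe sets were related with r = 0.571. Ass1 had the largest spread of the 8 genes (pooled SD 0.233), and the median pooled SD was 0.121 for the 8 genes and 0.085 for all genes.

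Asl, which splits argininosuccinate into arginine and fumarate, had values of 11.70, 11.67, 11.52 and 11.44 in PD1 to PD4, against 11.62, 11.63, 11.30 and 11.70 in CD1 to CD4. A single CD mouse, CD3, lay apart from the other CD mice, and PD4 was the lowest PD mouse. The difference was 0.02 (interval −0.18 to 0.22, exact permutation test, p = 0.83).

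Arg1, the arginase that releases urea and restores ornithine, had values of 13.31, 13.33, 13.22 and 13.04 in PD1 to PD4, against 13.19, 13.20, 13.01 and 13.24 in CD1 to CD4. Here too CD3 and PD4 were the lowest mice of their diets. Its difference of 0.06 (interval −0.10 to 0.22, exact permutation test, p = 0.457) was the highest of the 8 genes.

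Hal, histidine ammonia lyase, releases ammonia from histidine as the opening step of histidine breakdown. It had values of 11.91, 11.90, 11.88 and 11.57 in PD1 to PD4, against 12.00, 11.83, 11.66 and 11.94 in CD1 to CD4. PD4 stood apart from the other PD mice, which lay within 11.88 and 11.91, and CD3 was again the lowest CD mouse. The difference was −0.04 (interval −0.25 to 0.16, exact permutation test, p = 0.629). For the 8 genes, the widest bound of any interval was −0.571 (Ass1), and among the other genes the widest was that of Nags (−0.30).

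**Figure D1:**
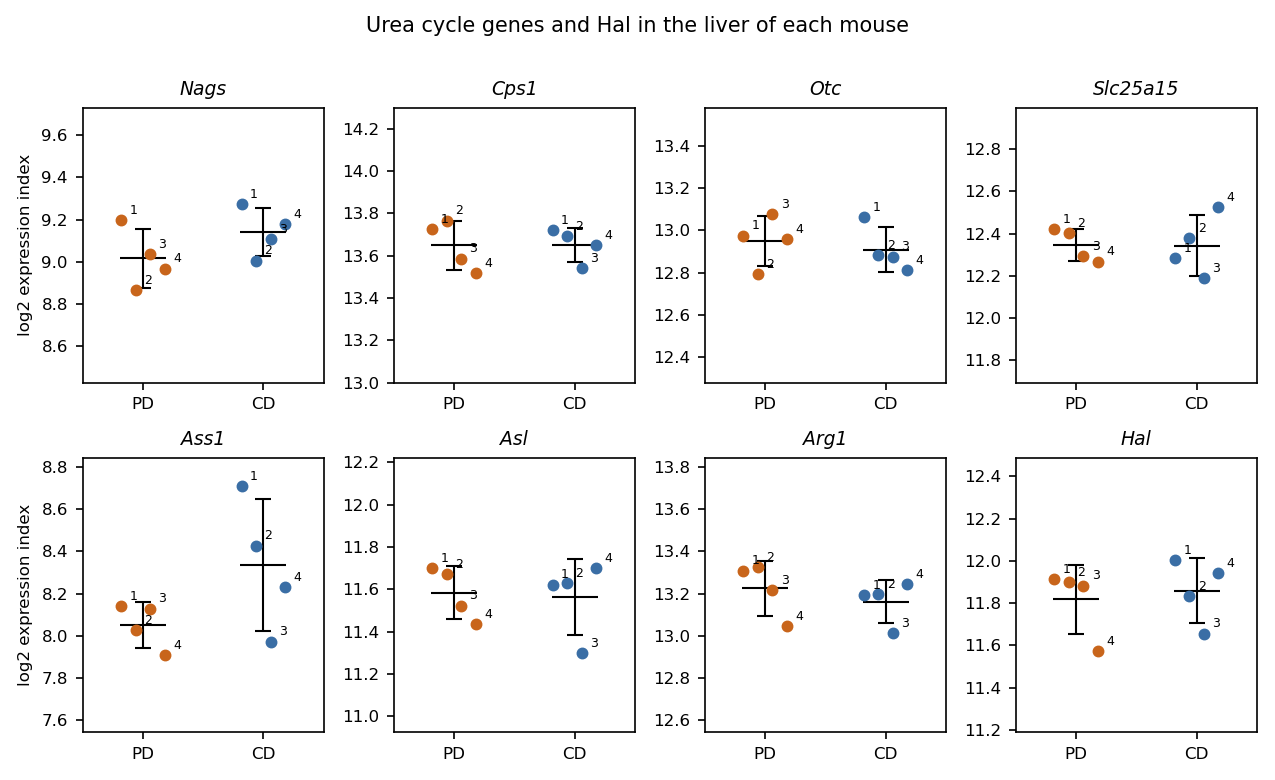
Log2 expression index (vertical axis) of the 8 measured genes in PD mice (orange) and CD mice (blue), with points numbered by replicate and bars giving the mean ± SD of 4 mice. Each panel spans the same height in log2 units, and the groups overlap in every panel, with Ass1 at 8.05 ± 0.11 in PD and 8.34 ± 0.31 in CD.

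**Figure D2:**
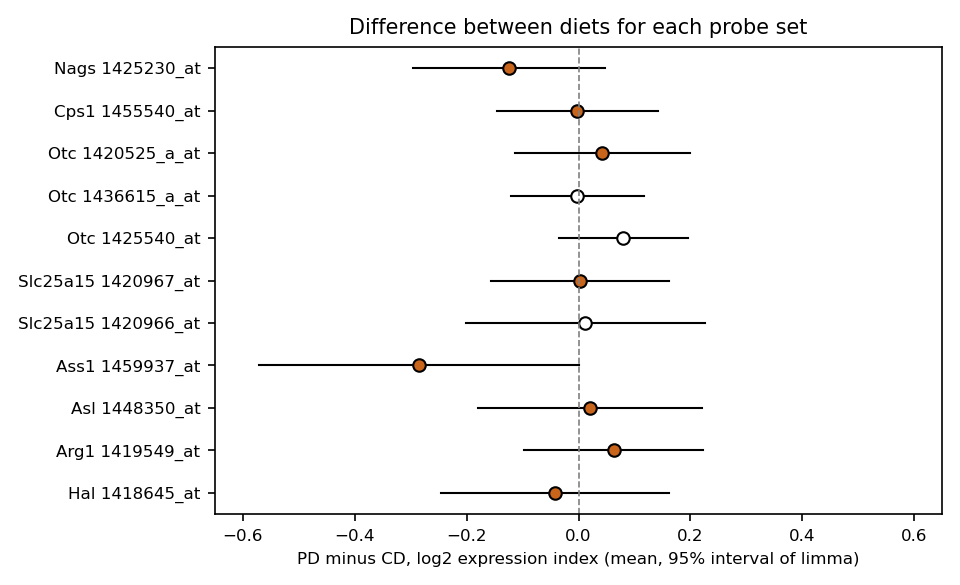
Difference between PD and CD (horizontal axis, log2 expression index) for the 11 probe sets (rows), with the 95% interval of limma as a line, filled circles for the probe set of highest mean of each gene and open circles for the others. Every interval includes 0, and that of Ass1 (−0.571 to 0.002) only at its upper end.

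The second question was whether these genes varied together between mice. Of the 28 pairs of the 8 measured genes, 23 had a positive Pearson r over the 8 mice, and the median r was 0.448. Over all pairs of the 18193 genes the median was 0.014, and over pairs of the 573 genes at least as bright as Asl it was 0.018. An r of at least 0.8 was reached by 7 of the 28 pairs (25%), against 1.27% of all gene pairs and 2.68% of pairs of the bright genes. These shares are descriptions, since pairs share genes and mice. All 7 pairs were formed by Asl, Arg1, Cps1, Hal and Slc25a15. Ass1 entered the pairs by its probe set with 1 symbol (mean 8.19), so what is said of its covariation rests on that probe set. The brighter probe set shared with Gm5424 (mean 12.20) was not used in the pairs.

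The highest r was that of Asl and Arg1, neighbours in the cycle (r = 0.908, permutation p = 0.002, adjusted p = 0.047 over 28 pairs, rho = 0.833, permutation p = 0.015, adjusted p = 0.144, 8 mice). Asl and Slc25a15 followed with r = 0.871 (permutation p = 0.003, adjusted p = 0.047) and rho = 0.976 (permutation p = 3.97e-04, adjusted p = 0.011). With the mean of both Slc25a15 probe sets in place of the main one, r of Asl and Slc25a15 was 0.738, below 0.8. Cps1 and Arg1 had r = 0.851 (permutation p = 0.007, adjusted p = 0.056) and rho = 0.762 (permutation p = 0.037, adjusted p = 0.257). These p-values came from all 40320 pairings of the 8 mice. In total 8 pairs had an unadjusted p under 0.05 for r and 2 an adjusted one, and 5 and 1 pairs had so for rho. Residuals from the diet means gave 0.931 for Asl and Arg1, 0.872 for Asl and Slc25a15 and 0.896 for Cps1 and Arg1, so these relations were also high within the diets.

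Otc stood outside this group. The lowest r of all pairs was that of Otc and Slc25a15 (r = −0.462, permutation p = 0.248, rho = −0.286, permutation p = 0.501). Cps1 and Otc, which act one after the other, had r = −0.186 (permutation p = 0.644) and rho = −0.167 (permutation p = 0.703). Otc and Asl had r = −0.146 (permutation p = 0.743) and rho = −0.310 (permutation p = 0.462). Adjusted over the 28 pairs, p of these 3 pairs lay between 0.466 and 0.869 for r and between 0.718 and 0.821 for rho. With the mean of the 3 Otc probe sets in place of the main one, r was −0.312 for Otc and Slc25a15, 0.055 for Cps1 and Otc and 0.112 for Otc and Asl. Nags and Cps1 also had a low r (r = 0.0995, permutation p = 0.809, adjusted p = 0.872, rho = 0.143, permutation p = 0.752, adjusted p = 0.840).

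In 2 mice, 1 of each diet, most of the 8 genes were low. PD4 and CD3 each were below the mean of the 8 mice for 7 of the 8 genes. PD4 was the lowest mouse for Cps1, Ass1 and Hal, and CD3 for Asl, Arg1 and Slc25a15, each by its main probe set. On the other probe set of Slc25a15 the lowest mouse was PD4 (8.48), and on the Ass1 probe set shared with Gm5424 it was CD3 (11.94). The median deviation over the 8 genes was −0.13 in PD4 and −0.17 in CD3, whereas it ran from −0.05 to 0.08 over PD1 to PD3 and from 0.02 to 0.10 over CD1, CD2 and CD4. Without the 2 mice farthest from the median of the first gene of each pair (PD4 and CD3 for the 3 pairs of highest r), r over 6 mice was 0.570 for Asl and Arg1, 0.789 for Asl and Slc25a15 and 0.521 for Cps1 and Arg1. Over those 6 mice the permutation p of r was 0.242, 0.056 and 0.274, so none of the 3 relations passed by r without both PD4 and CD3. Removal of these mice also narrows the range of the values. With a single mouse removed, r was 0.901 without PD4 and 0.846 without CD3 for Asl and Arg1, 0.858 without PD4 and 0.806 without CD3 for Asl and Slc25a15, and 0.786 without PD4 and 0.812 without CD3 for Cps1 and Arg1. The rho of Asl and Slc25a15 was 0.943 over the 6 mice, and no p was computed for rho there. In a comparison added after these values were seen, 0 of 28 pairs reached an r of 0.8 without PD4 and CD3, the median r was 0.139 and 16 pairs were positive. Over all gene pairs, the same 6 mice gave a median of 0.014 and an r of at least 0.8 in 3.32%. The differences between diets without PD4 and CD3 remained between −0.36 (Ass1) and 0.07 (Arg1).

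**Figure D3:**
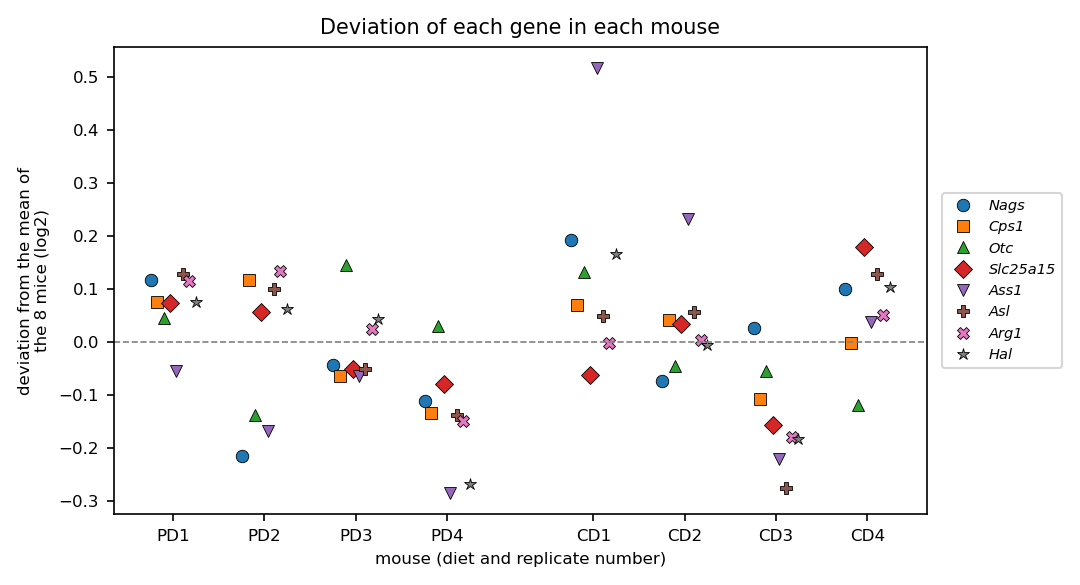
Deviation of each gene from its mean over the 8 mice (vertical axis, log2) in each mouse (horizontal axis, PD mice left and CD mice right), 1 symbol per gene. In PD4 and in CD3, 7 of the 8 genes lie below 0, and CD1 holds the highest point, Ass1.

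**Figure D4:**
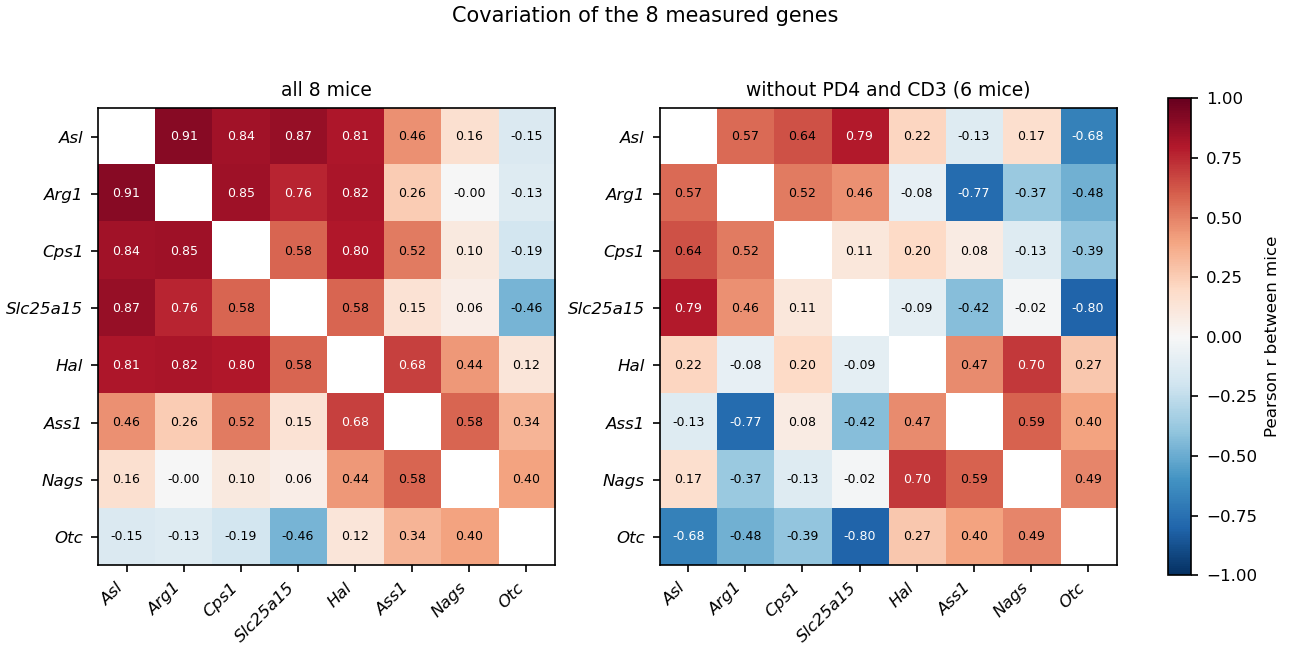
Pearson r between mice for every pair of the 8 measured genes, over all 8 mice (left) and over 6 mice without PD4 and CD3 (right), with colour running from −1 (blue) to 1 (red). The block of Asl, Arg1, Cps1, Slc25a15 and Hal at the upper left holds all 7 pairs with r of at least 0.8 over 8 mice and has none over 6 mice.

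**Figure D5:**
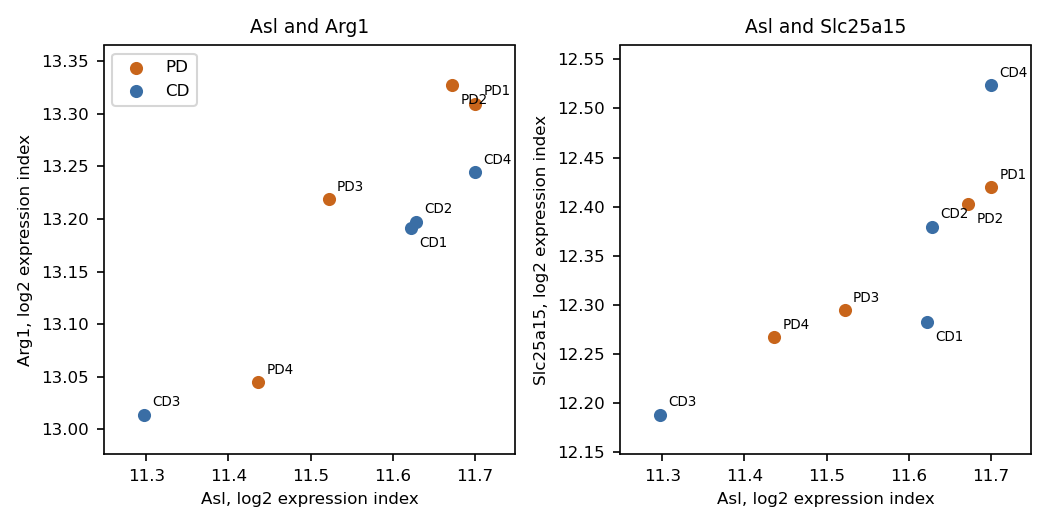
Asl (horizontal axis) against Arg1 (left) and Slc25a15 (right), log2 expression index, with 1 point per mouse in orange for PD and blue for CD. CD3 and PD4 lie at the lower left of both panels, and r over 8 mice is 0.908 for Arg1 and 0.871 for Slc25a15.

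The marker lists and array controls were searched for values that moved with the low mice, and not all of those given here did. The mean level of 6 sinusoidal endothelium markers ran between 8.68 and 8.88 in PD mice and between 8.68 and 8.94 in CD mice and had r = −0.857 with Cps1 and −0.787 with Asl over the 8 mice. It deviated by 0.04 in PD4, less than in PD3 (0.09), and by 0.16 in CD3, its highest mouse. Without PD4 and CD3 the r was −0.898 with Cps1 and −0.488 with Asl. Among these markers Lyve1 had the widest range between the mice (0.99), and the others ranged from 0.21 (Pecam1) to 0.32 (Stab2). Taken singly, their r with Cps1 ran from −0.839 (Lyve1) to −0.082 (Clec4g). The mean of 8 stellate cell and fibroblast markers ran between 8.397 and 8.481 in PD mice and between 8.14 and 8.52 in CD mice, with r = −0.471 for Cps1 and −0.612 for Asl, and PD4 and CD3 were the highest mice of their diets. Without these mice the r was 0.108 with Cps1 and −0.062 with Asl. The single stellate cell and fibroblast markers went both ways, with r with Cps1 from −0.656 (Reln) to 0.344 (Col1a1). PD4 was the highest PD mouse for Col1a2, Lrat and Reln and the lowest for Col1a1, Dcn and Acta2. The mean of 7 hepatocyte markers ran between 13.66 and 13.78 in PD mice and between 13.73 and 13.82 in CD mice. It deviated by −0.10 in PD4 but by 0.02 in CD3, so it was not low in CD3. Its r was 0.681 with Cps1 and 0.287 with Asl (0.708 and 0.078 without PD4 and CD3). The hepatocyte markers did not share this relation. Taken singly, their r with Cps1 ran from −0.245 (Apob) to 0.724 (Cyp2c29). Tat, with r = 0.546, had the widest range of them between the mice (0.94). The array median was 7.15 in PD4 and 7.09 in CD3, within 7.09 and 7.16 for all 8 arrays. As a sign of RNA quality, the signal near the 3′ end exceeded that near the 5′ end by a log2 ratio between 1.14 and 1.19 for Actb and between 0.11 and 0.18 for Gapdh in the 8 mice. The part of these values in the covariation was not tested.

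By the measure of likeness (Pearson r over the 8 mice among 6303 other genes at least as bright as the dimmest member), the genes closest to Cps1 were Mmab (r = 0.929), Nsun2 (0.898), Thoc1 (0.883), Cyp2c70 (0.883) and Mrps24 (0.883). Cyp2c70, a cytochrome P450 that makes muricholic acid in mice, had values of 12.74, 12.92, 12.61 and 12.33 in PD mice, against 12.97, 12.78, 12.52 and 12.88 in CD mice. As for Cps1, PD4 and CD3 were its lowest mice. The genes closest to Ass1, the member of the largest spread, were Paxx (r = 0.962), 4933432I09Rik (0.930), Gnb1 (0.923), Bhmt2 (0.922) and Abcb11 (0.918). Abcb11, the bile salt export pump, had values of 10.77, 10.61, 10.71 and 10.44 in PD mice, against 11.07, 10.93, 10.72 and 10.69 in CD mice. As for Ass1, CD1 and CD2 were its highest mice. These are the closest of all genes searched, and their r is therefore a description. That they share their lowest or highest mice with Cps1 or Ass1 comes with this choice and is no further observation.

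The neighbours of the cycle in nitrogen metabolism were counted by lists. Of 17 genes that deliver nitrogen to the cycle or work beside it in mitochondria, all 17 were measured, 8 were higher and 9 lower in PD, and 0 were called (median difference −0.007). The largest difference in that list was that of Slc38a2, a transporter for neutral amino acids (10.43 ± 0.27 in PD and 10.57 ± 0.20 in CD, SD, n = 4 each), which did not pass. The 3 enzymes of histidine breakdown after Hal were all lower in PD without a call (median −0.066, largest for Amdhd1, −0.09). Among enzymes for serine, threonine and glycine, 6 of 10 were measured, 3 were higher and 3 lower, and Gldc, the decarboxylase of the glycine cleavage system, had the largest difference (−0.19, interval −0.43 to 0.06). For pericentral nitrogen handling, 0 of 5 genes were higher, 5 were lower and 0 were called (median −0.093). Glul, the glutamine synthetase, read 12.39 ± 0.17 in PD and 12.49 ± 0.11 in CD (SD, n = 4 each). Of 13 regulators measured, 6 were higher and 7 lower with 0 called, and Cebpb, a C/EBP transcription factor, had the largest difference (−0.26, interval −0.53 to 0.01). Of 5 gluconeogenic genes, 2 were higher and 3 lower with 0 called (largest for G6pc, glucose-6-phosphatase, −0.16).

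A single gene of these pathway lists was called. Among other catabolic enzymes for amino acids known to respond to fasting hormones, 12 of 13 were measured, 2 were higher and 10 lower (median −0.034), and Tat was called as lower in PD. Tat, tyrosine aminotransferase, is an enzyme that glucocorticoids and glucagon are known to induce. It had values of 11.83, 11.63, 11.54 and 11.11 in PD1 to PD4, against 12.05, 12.00, 11.87 and 11.95 in CD1 to CD4. All PD mice were below all CD mice, a separation found for the 2.08% of probe sets given before, with PD4 lowest. The difference was −0.44 (interval −0.72 to −0.16, rank product FDR = 0.029, exact permutation test, p = 0.0286, limma adjusted p = 0.998). The call was lost without PD4 (−0.30), CD1 (−0.41), CD2 (−0.43) or CD3 (−0.47). Between mice Tat had r = 0.546 with Cps1, 0.375 with Asl and 0.297 with Arg1.

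Markers of the liver zones and cell types were compared between the diets, which does not check the zone of the members. Between mice, the mean of the periportal markers had r = 0.178 with Cps1 and 0.119 with Asl. The mean of the pericentral markers had r = 0.420 and 0.334. Of 8 periportal hepatocyte markers 0 were higher and 8 lower in PD (median −0.097), and of 10 pericentral markers 1 was higher and 9 lower (median −0.075), with 0 called in either list. Among the periportal markers Sox9 differed by only −2.7e-04, and every interval in that list included 0. Over all genes 46.5% were higher in PD. The zone counts are not separate from those of the pathway lists. Glul, Oat, Rhbg and Slc1a2 stand in both pericentral lists, and Pck1 and G6pc in the periportal and the gluconeogenic list. Sox9 stands in the periportal and the cholangiocyte list. Of the hepatocyte markers, 3 of 7 were higher and 4 lower (median −2.8e-04), with Tat as the single call. Among the lists of other cell types, the single call was that of Col3a1, a fibrillar collagen, in the stellate cell and fibroblast list (higher in PD, 6 of 8 markers higher). Col3a1 differed by 0.37 (interval −0.03 to 0.78, rank product FDR = 0.021, exact permutation test, p = 0.143). Unlike for Tat, the groups overlapped, with CD3 (8.99) above every PD mouse. The call of Col3a1 was lost without PD2 (0.33), PD3 (0.37), PD4 (0.36) or CD2 (0.25), and without CD3 its difference was 0.60.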

How the data were processed

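Liver RNA of 4 PD and 4 CD mice was hybridized to Affymetrix mouse arrays, 1 per mouse. What the authors deposited is the model-based expression index on the log2 scale, for which the submitters' processing notes name R 2.7.2. The normalization between arrays is not stated by any source used, and the values were taken as they stand. The array medians ran from 7.09 to 7.16, and r between arrays from 0.991 to 0.996. The number of mice limits the precision.

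After removal of 64 controls, 45037 probe sets were tested. By the platform annotation 34945 of them had 1 symbol, 932 several and 9160 none. A gene was represented by its probe set of highest mean. The rank product (the array test of the study's methods, 16 array pairs, 1000 permutations, FDR under 0.1) was coded in Python 3.11.15 (scipy 1.17.1, pandas 2.3.3, numpy 2.4.6). The linear model was limma 3.58.1 under R 4.3.3 over all probe sets, with Benjamini-Hochberg adjustment, and both were tested on simulated data. For single values an exact permutation test, two-sided, was used. Correlations were tested over all pairings of the 8 mice and adjusted over 28 pairs. The design had foreseen 45 pairs, but 2 of the 10 genes had no probe set.

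The members and lists were chosen with earlier results of these data known. The genes named are all members, and of each pathway list the called genes and that of largest difference. Also named are the 5 genes most alike to Cps1 and to the member of largest spread, and the 3 pairs of highest and of lowest r. Col3a1, the pair of Nags and Cps1 and the marker lists discussed were singled out after their values were seen. As alternatives, the FDR was held under 0.05, arrays were quantile normalized or centred on their medians, 16 was added to the linear value, dim probe sets were removed, the replicate number served as a block, limma was run with a trend and robust variances, all probe sets of a gene were averaged, the methods' t-test was run, diet means were subtracted before correlation, and each mouse was left out in turn. Removal of PD4 and CD3 together was added after seeing the data.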

Additional observations from a re-analysis of the deposited data

Results flagged for a closer look

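In 22 sets of 4 mice (11 probe sets in each diet), 1 mouse stood apart from the others by Dixon's criterion, which chance meets in about 1 of 20 sets. Hal read 11.57 in PD4, while the other PD mice lay between 11.88 and 11.91, and the gap made up 0.908 of the range of the PD mice. PD4 was also the lowest of the 8 mice for Cps1 and, by the probe set with 1 symbol, for Ass1.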

How the results depend on the processing

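The 8 member differences were recomputed under 6 processing alternatives and without each of the 8 mice. Of these 112 values, 0 moved by as much as the pooled SD or were called, and 15 had the other sign. Leaving out 1 of 4 mice cannot move a difference by as much as the pooled SD. Removal of dim probe sets and the replicate block left each difference as it was, as did averaging for genes with 1 probe set. That 0 values moved so far is thus no sign of stability under these settings. The number of member probe sets called by the rank product stayed 0 at an FDR under 0.05, with quantile normalization, with 16 added, with dim probe sets removed and without each mouse (centring an array does not alter ranks within a pair of arrays). Over all probe sets the count called as lower in PD (117) was 66 at an FDR under 0.05 and 66 once dim probe sets were removed. Leaving out 1 mouse gave 27 (without PD4) to 190 (without CD3) called as higher and 16 (without CD1) to 207 (without PD1) called as lower. limma called 0 to 1 probe sets when 1 mouse was left out (1 without PD2), and the methods' t-test gave 1711 unadjusted p under 0.05 and 0 after adjustment, with 0 member probe sets in either. The median r of the 28 pairs (0.448) was 0.581 for residuals from the diet means, 0.257 without the 2 mice farthest from the median of the first gene, 0.139 without both PD4 and CD3, and 0.400 to 0.563 when 1 mouse was left out. The number of pairs with r of at least 0.8 was 7, and 0 without both PD4 and CD3. With the replicate number as a block, 109 probe sets were called as higher and 102 as lower by the rank product, 0 by limma and 0 of the members. The deviations of PD and CD mice of the same number had r between −0.060 and −0.0003, and those of unlike number between −0.19 and 0.16. With 4 mice per diet these values cannot settle what a shared number stands for, and this was not tested. The 4 mice per diet limit the precision, and the interval of Ass1 reached −0.571.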
